A study of Mus musculus with 12 samples.

Results

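Nuclear genes encode the subunits of respiratory complex II and most subunits of complexes III, IV and V. The 39 nuclear subunit genes listed by symbol for these complexes, together with cytochrome c, were all found among the 43279 genes of the deposited table, and all 39 passed the filter on low values. They comprise 4 genes of complex II, 9 of complex III, the cytochrome c gene Cycs, 10 of complex IV and 15 of complex V. Their RNA was measured by polyA+ RNA sequencing in hematopoietic stem cells sorted from adult bone marrow: 6 naive wild-type C57BL/6 mice and 5 Osmr-/- mice, which lack the receptor chain for the cytokine oncostatin M. From each mouse, 1000 cells of the phenotype Lin- KIT+ SCA-1+ FLT3- CD48- were sorted out of crushed femur, tibias and ilium, so each library is a different animal. The labels describe the Osmr loss as a gene knock-out and name no Cre driver, and they give neither an age nor the background strain of the Osmr-/- mice. The knock-out sample numbered 4 has labels and no column in the tables, and it was not analysed here.

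Complex II (succinate dehydrogenase) takes electrons from succinate and passes them to ubiquinone, and complex III moves them on to cytochrome c. Complex IV hands them to oxygen, and complex V, the ATP synthase, uses the proton gradient that complexes I, III and IV build. Each of complexes III to V joins a catalytic core to small accessory subunits, and mitochondrial DNA encodes some of the subunits of each. Hematopoietic stem cells are known for a low reliance on oxidative phosphorylation while they are quiescent.

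The deposited values are read counts divided by a size factor of each library, called normalised counts here. Library totals ran from 9.50 to 22.1 M reads, and wild type 1 held the 22.1 M. Osmr had 0 to 8 reads per wild-type library (13 in all) and 0 to 2 per Osmr-/- library (4 in all), so it gave no check of the labels. The libraries also differ by label number: an earlier look at these data had set numbers 1 to 3 apart from numbers 4 to 6 in both genotypes, which the labels do not call a batch, and values within each set are given below. Of the 10 stem cell gate markers all were tested, and their summed normalised count was 21593 to 30422 in wild type and 21567 to 33024 in Osmr-/-. Of these 10 markers 5 were below 0, among them Slamf1 (log2 difference -1.02) and Procr (-0.79). Flt3 and Cd48, against which the cells were sorted, had means of 504 ± 164 and 637 ± 429 in wild type (SD, n = 6) and 389 ± 148 and 853 ± 355 in Osmr-/- (SD, n = 5). The summed level of the 10 granulocyte and monocyte markers was 32814 in Osmr-/- 3, where the other libraries held 8802 to 17207, and S100a8 was 10780 there and at most 346 elsewhere. Without Osmr-/- 3 the median difference over the 39 subunit genes was 0.39, with 25 above 0 and 17 at an unadjusted p under 0.05 in limma. In that fit 1800 of all 13358 genes tested had such a p, and their median difference was -0.03. With all libraries kept, 23 of the 39 and 2401 of the 13358 had such a p. Of 14 tested erythroid markers 13 were lower in Osmr-/-, with a median log2 difference of -2.18. The summed level of all listed erythroid markers was 19762 to 60101 in wild type (55230 to 60101 in numbers 1 to 3) against 13089 to 19527 in Osmr-/-. Most of this sum was Car2, with means of 26493 in wild type and 11416 in Osmr-/-. The globin gene Hbb-bt went the other way, with means of 316 ± 208 and 1162 ± 390 (SD, n = 6 and 5), a log2 difference of 2.02. The sort was on Ter119-negative cells, and the erythroid markers Sptb and Slc4a1 were below the filter. In bulk samples, fewer cells of a type and less RNA per cell cannot be told apart. The part of the erythroid and granulocyte differences in the subunit results was not tested.

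Across the 39 genes, 24 had a higher mean in Osmr-/- and 15 a lower one, and complexes II to V each held genes of both signs. The median log2 difference (Osmr-/- minus wild type, on log2(normalised count + 1)) was 0.49, whereas over all 13358 genes tested it was -0.05 with 46.8% above 0. No subunit gene passed an adjusted p of 0.05 in limma with genotype alone (0 of 39), and in that fit 0.00749% of all genes tested were called higher and 0.015% lower. At an unadjusted p under 0.05 the same limma fit placed 17 of the 39 higher and 6 lower, where the background over all genes was 7.5% higher and 10.5% lower. DESeq2 on the recovered reads called 1 of the 39 higher and 2 lower (background 1.53% and 2.83%), and edgeR's quasi-likelihood test called 0.

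With the number set as a covariate, limma called 9 subunit genes at an adjusted p under 0.05. Uqcrb, Cox6c, Cox7a2, Cox7b, Cox7c, Atp5e and Atp5l were called higher (7 of 39, background 0.996%), and Uqcrc1 and Atp5d lower (2 of 39, background 1.53%). In the authors' deposited table, Atp5e was higher (log2 fold change 0.95, adjusted p 0.0489), while Uqcrc1 (-1.66, 0.00179) and Atp5d (-0.82, 0.00498) were lower. That is 1 of 39 higher and 2 of 39 lower in the authors' deposited table, beside 1.67% and 2.79% of the genes with an adjusted p there. Whether genotype differed in its effect between the number sets was tested in limma by an interaction term, which passed the adjusted threshold in 0 of 39 subunit genes and 0 of 13358 genes, and an unadjusted p under 0.05 in 3 of 39 (Sdhd, Atp5c1 and Uqcrc2) and 1316 of 13358. Cox6c is named here after its values were seen.

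**Figure D1:**
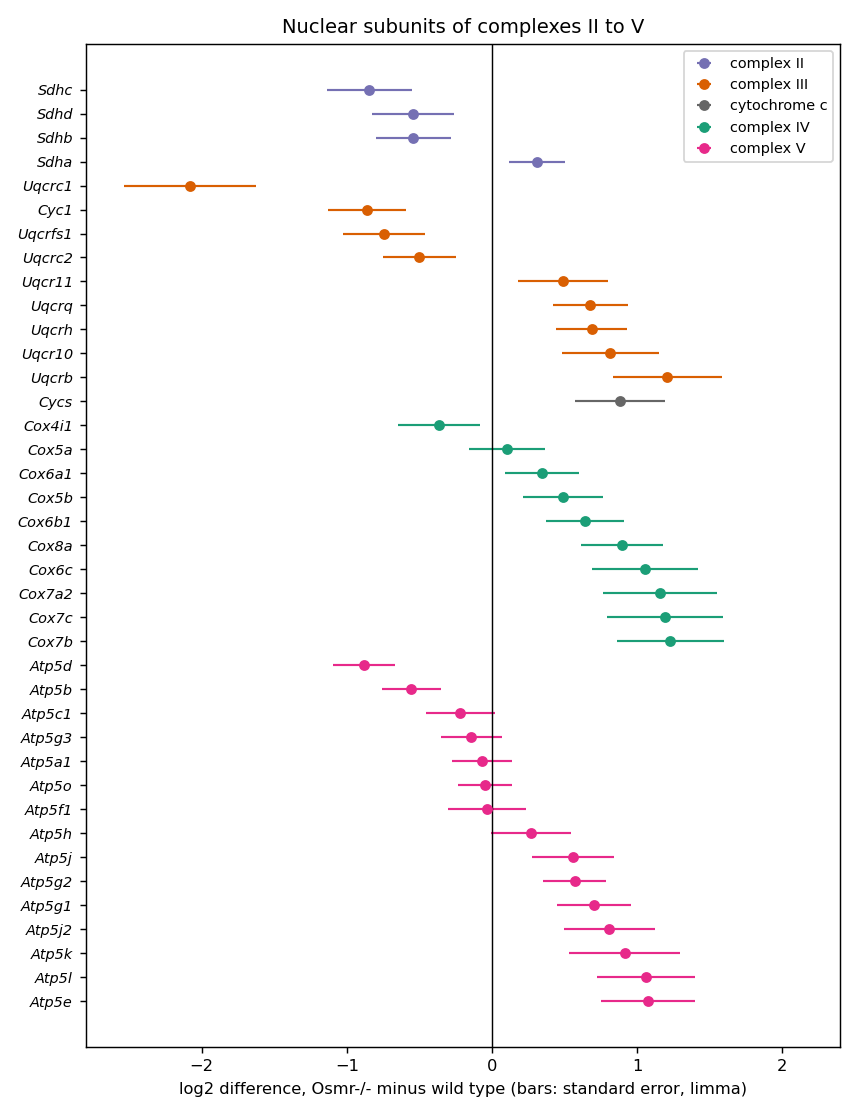
Log2 difference between Osmr-/- (n = 5) and wild type (n = 6) for each of the 39 subunit genes, by complex; points are limma estimates and bars their standard errors. Complex IV lies to the right of 0 apart from Cox4i1, while complexes II, III and V hold genes on both sides.

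Promoters of 4 genes are shown to set the ends of complexes III and V side by side. Among the genes of each complex with a promoter window, Uqcrc1 and Atp5d had the lowest log2 differences, and Uqcr10 (0.81) and Atp5e the highest, a choice made after these values were seen. Uqcrb had no window here. Each line gives the 250 bases before the RefSeq start on GRCm38.p6, read 5′ to 3′ on the gene's own strand, with matches to motifs of known regulators of respiratory genes in capitals. The places are chr9:108936398-108936647 (plus strand) for Uqcrc1, chr11:4704345-4704594 (minus) for Uqcr10, chr10:80142065-80142314 (plus) for Atp5d and chr2:174464102-174464351 (minus) for Atp5e.
Uqcrc1: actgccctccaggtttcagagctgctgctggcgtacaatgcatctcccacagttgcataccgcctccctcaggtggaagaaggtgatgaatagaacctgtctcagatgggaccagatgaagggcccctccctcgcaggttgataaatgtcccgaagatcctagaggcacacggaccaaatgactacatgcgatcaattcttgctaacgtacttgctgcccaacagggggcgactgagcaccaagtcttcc
Uqcr10: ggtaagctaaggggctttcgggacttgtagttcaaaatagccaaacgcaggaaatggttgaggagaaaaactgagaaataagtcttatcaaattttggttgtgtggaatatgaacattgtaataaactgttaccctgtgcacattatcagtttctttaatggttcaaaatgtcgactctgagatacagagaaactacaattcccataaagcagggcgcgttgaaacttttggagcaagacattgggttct
Atp5d: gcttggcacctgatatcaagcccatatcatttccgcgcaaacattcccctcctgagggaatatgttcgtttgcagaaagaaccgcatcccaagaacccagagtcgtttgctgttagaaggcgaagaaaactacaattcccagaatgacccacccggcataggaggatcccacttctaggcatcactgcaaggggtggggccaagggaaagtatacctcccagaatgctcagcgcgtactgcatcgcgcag
Atp5e: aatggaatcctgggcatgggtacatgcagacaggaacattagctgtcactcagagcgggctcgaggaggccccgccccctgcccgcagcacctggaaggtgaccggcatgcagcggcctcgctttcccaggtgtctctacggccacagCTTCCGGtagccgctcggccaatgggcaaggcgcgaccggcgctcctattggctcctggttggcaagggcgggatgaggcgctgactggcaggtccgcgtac
The capitals in Atp5e are the ETS motif CCGGAAG on the opposite strand, starting 102 bases before the start, and the printed stretches of the other 3 hold no match to any of the motifs searched. RefSeq windows of 300 bases (250 before and 50 after the start) were at hand for 30 of the 39 genes and were searched on both strands, each motif counted by itself also where matches overlapped. The NRF1 motif (GCGCA, any base, then GCGC) was in 10 of the 30 and in 5.19% of the 27025 genes with a window. In Uqcrc1 its match was not within the printed stretch. The ETS motif, the core bound by GABP, was in 12 of the 30 and in 9.93% of all genes, and the YY1 motif AAGATGGC in 2 of the 30 and in 3.19%. Genes with a higher mean in Osmr-/- held the ETS motif in 10 of 21 and NRF1 in 5 of 21, and genes with a lower mean held them in 2 of 9 and 5 of 9. These matches describe letters in a window and show no binding.

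In complex II, the membrane anchors and the iron-sulphur subunit had lower means in Osmr-/-, and the flavoprotein had a higher one. Sdhc, a ubiquinone-binding membrane anchor, had a lowest, median and highest normalised count of 1198, 2122 and 3164 in wild type, and 1444, 1627, 671, 1307 and 967 in Osmr-/- 1, 2, 3, 5 and 6. The genotypes overlapped through wild type 6, and 3 of the 5 Osmr-/- libraries lay above it. The log2 difference was -0.84 with a standard error (SE) of 0.294 and an adjusted p of 0.169 in limma. Sdhd, the other membrane anchor, had means of 5764 ± 2411 in wild type (SD, n = 6) and 3749 ± 879 in Osmr-/- (SD, n = 5), a log2 difference of -0.54. Within numbers 1 to 3 its difference was -1.27, and 0.30 within numbers 4 to 6, and the gap between these had an unadjusted interaction p of 0.000331 in limma (adjusted 0.232). Sdhb, the iron-sulphur subunit, had means of 5533 ± 1783 and 3672 ± 752 (SD, n = 6 and 5), a log2 difference of -0.54. Sdha, the catalytic flavoprotein, had 1572 ± 343 in wild type and 1921 ± 194 in Osmr-/- (SD), a log2 difference of 0.31 with an adjusted p of 0.421. With smooth trends over transcript length and GC content removed from each library, Sdhb had -0.14 (adjusted p 0.732, limma) and Sdhd -0.27 (0.574). In the same fit Sdhc had -0.83 (adjusted p 0.209, limma) and Sdha 0.35 (0.314). The median over the 4 genes was -1.02 within numbers 1 to 3 and -0.14 within numbers 4 to 6.

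Complex III split by subunit size: the 4 genes for its core proteins and redox subunits had lower means in Osmr-/-, and all 5 genes for small accessory subunits had higher ones. The median log2 difference over the 9 genes was 0.49, and 0.53 and 0.24 within numbers 1 to 3 and 4 to 6. Uqcrc1 (chr9:108936633-108949623), which encodes a core protein on the matrix side, had a lowest, median and highest normalised count of 939, 2682 and 5866 in wild type. In Osmr-/- 1, 2, 3, 5 and 6 it had 1130.5, 578, 314, 1301 and 397. Wild type 6 lay within the Osmr-/- range and the other wild types above it. The means were 3148 ± 1754 and 744 ± 445 (SD, n = 6 and 5), which on the log2 scale is a difference of -2.08 (SE 0.454, adjusted p 0.0717, limma), the largest in size among the 39 genes. It was -2.72 within numbers 1 to 3 and -1.39 within numbers 4 to 6. With the number set as a covariate it was -2.13 with an adjusted p of 0.0383, and without wild type 6 it was -2.39 with an adjusted p of 0.0307 (limma).

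Uqcrc2, the other core protein gene, had means of 2171 ± 699 in wild type and 1506 ± 357 in Osmr-/- (SD, n = 6 and 5), a log2 difference of -0.50. Its difference was -0.98 within the lower numbers and 0.03 within the upper ones. Cyc1, which encodes the haem-bearing cytochrome c1, had a lowest, median and highest normalised count of 1028, 1690.5 and 2446 in wild type. Its Osmr-/- values were 851, 1370.5, 597, 925 and 841, and only Osmr-/- 2 reached into the wild-type range. The log2 difference was -0.86 (SE 0.267, adjusted p 0.140, limma), and -1.02 and -0.70 within the number sets. Uqcrfs1, the Rieske iron-sulphur subunit, had a log2 difference of -0.74. With length and GC trends removed, Cyc1 had -0.35 (adjusted p 0.389, limma), Uqcrfs1 -0.44 and Uqcrc2 -0.34, and Uqcrc1 had -1.55 (adjusted p 0.0946, limma).

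Among the accessory subunits of complex III, Uqcrb (chr13:66900617-66905378), which encodes a subunit near the ubiquinone-binding site, had the largest difference. Its lowest, median and highest normalised count was 3628, 6879 and 14644 in wild type, and it was 19951, 21527, 22396, 9056 and 8696 in Osmr-/- 1, 2, 3, 5 and 6. Wild type 3 stood above Osmr-/- 5 and 6, and every other wild type lay below all Osmr-/- libraries. The log2 difference was 1.21 (SE 0.374, adjusted p 0.140, limma) and with the number set as a covariate 1.09 (adjusted p 0.0329). With length and GC trends removed it was 0.76 (adjusted p 0.0946, limma). Uqcrh, the hinge protein that meets cytochrome c1, had means of 6634 ± 2487 and 10248 ± 1558 (SD, n = 6 and 5), a log2 difference of 0.69, and Uqcrq had 0.68. The accessory subunits ranged from 0.49 in Uqcr11 to the 1.21 of Uqcrb.

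Cycs (chr6:50562563-50566538), which encodes the carrier between complexes III and IV, sided with the small subunits and not with Cyc1. It had a lowest, median and highest normalised count of 1184, 2051 and 4372 in wild type, and 4477, 5167, 4858, 2949 and 2696 in Osmr-/- 1, 2, 3, 5 and 6. Wild types 2 and 3 overlapped the Osmr-/- range. The log2 difference was 0.88 (SE 0.309, adjusted p 0.172, limma), and 0.74 and 0.86 within the number sets. Near-identical pseudogenes of Cycs are annotated, as given below for all genes.

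**Figure D2:**
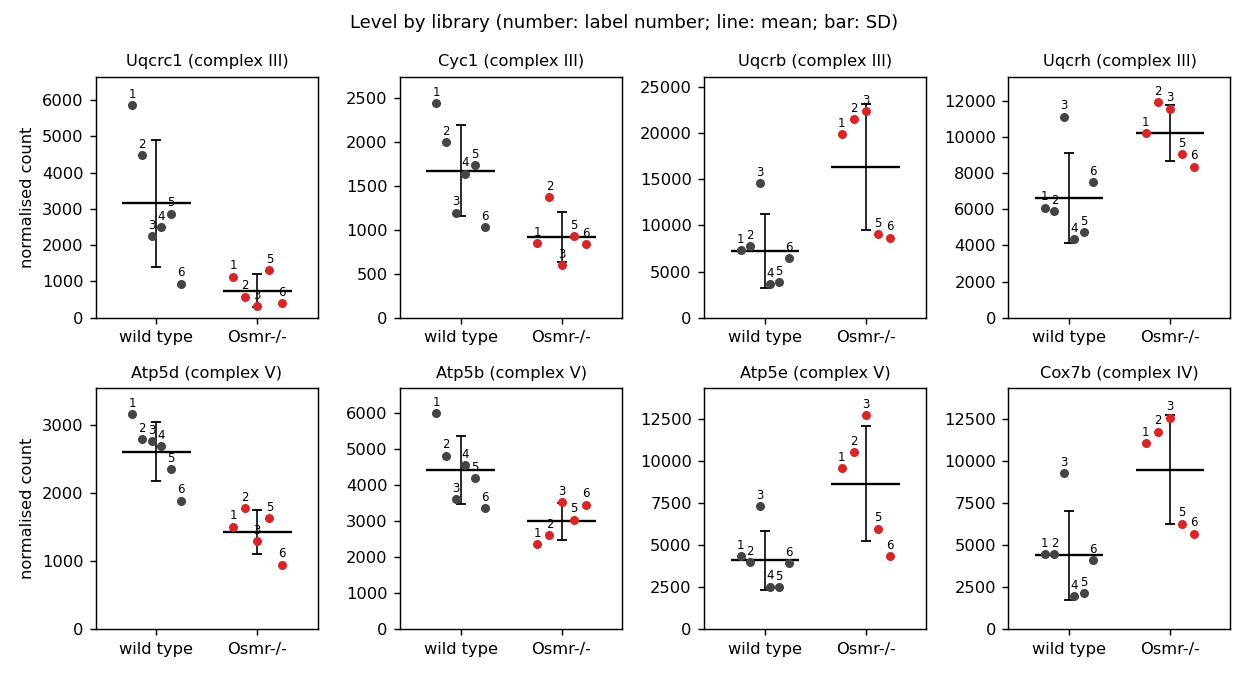
Normalised count of 8 subunit genes in each library (dots numbered by label number; line, mean; bar, SD; n = 6 wild type and 5 Osmr-/-; each axis starts at 0). Atp5d is the gene without overlap between genotypes, and wild type 3 is the highest wild type for Uqcrb, Uqcrh, Atp5e and Cox7b.

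In complex IV, 9 of the 10 nuclear subunit genes had a higher mean in Osmr-/-, with a median log2 difference of 0.77. At an unadjusted p under 0.05 in limma, 6 of the 10 were higher and 0 lower, beside 7.5% and 10.5% of all genes tested. The median was 0.59 within numbers 1 to 3 and 0.89 within numbers 4 to 6. Cox7b (chrX:106015700-106022450), which encodes a small membrane-spanning accessory subunit, had a lowest, median and highest normalised count of 1944, 4284 and 9307 in wild type. In Osmr-/- 1, 2, 3, 5 and 6 it had 11074, 11764, 12604, 6279 and 5677, so wild type 3 alone among the wild types overlapped them. Its log2 difference was 1.23 (SE 0.368, adjusted p 0.133, limma) and 1.12 with the covariate (adjusted p 0.0380).

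Cox7c and Cox7a2, further membrane-spanning accessory subunits, had log2 differences of 1.19 and 1.16. Cox7c went from 2774 ± 2011 in wild type (SD, n = 6) to 5639 ± 2069 in Osmr-/- (SD, n = 5), and Cox7a2 from 6065 ± 3862 to 12403 ± 4827 (SD). In both, the spread among libraries of a genotype was wide, with wild type 3 at 6643 and 13249.7 and wild type 4 at 1169 and 2424. Cox8a, a further small subunit, had a log2 difference of 0.90 (SE 0.282, adjusted p 0.143, limma). Its Osmr-/- libraries held 16780.4, 21785, 20128, 15069.5 and 13059, and wild type ran from 5754 through a median of 8753 to 19005. Wild type 3 was the only wild type that overlapped Osmr-/-.

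Cox4i1 was the single complex IV gene with a lower mean in Osmr-/-. It encodes the largest nuclear subunit, which binds ATP as a regulator of the enzyme, and had means of 15301 ± 2263 in wild type and 12711 ± 4784 in Osmr-/- (SD, n = 6 and 5), a log2 difference of -0.37 (adjusted p 0.516, limma). The genotypes overlapped, and Osmr-/- 6 stood lowest with 5276 where the other Osmr-/- libraries held at least 12308. Without Osmr-/- 6 the log2 difference was -0.08 (adjusted p 0.870, limma), and with length and GC trends removed it was -0.21. Its difference was -0.03 within numbers 1 to 3 and -0.88 within numbers 4 to 6. Cox5a, with 0.10, was the lowest of the genes above 0.

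In complex V, 8 of the 15 genes had a higher mean in Osmr-/- and 7 a lower one, with a median log2 difference of 0.27 (0.34 within numbers 1 to 3 and 0.27 within numbers 4 to 6). The subunits of the rotating central stalk had opposite signs. Atp5d (chr10:80138632-80145818), which encodes the delta subunit at the foot of the central stalk, had a lowest, median and highest normalised count of 1888, 2726 and 3165 in wild type. In Osmr-/- 1, 2, 3, 5 and 6 it had 1504, 1776, 1295, 1636 and 947. It was the only gene of the 39 whose genotypes did not overlap, 1 of 39 lower and 0 of 39 higher, beside 1.42% and 1.09% of all genes tested. The log2 difference was -0.88 (SE 0.214, adjusted p 0.0896, limma), -0.94 and -0.88 within the number sets, and -0.91 with the covariate (adjusted p 0.0351). Leaving out any single library gave -0.97 to -0.74 for Atp5d, and without wild type 6 its adjusted p was 0.0489 (limma). With smooth trends over transcript length and GC content removed from each library it was -0.54 (adjusted p 0.114, limma).

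Atp5e (chr2:174461072-174464105) encodes the epsilon subunit, which sits against delta in the same stalk, and it had the opposite sign. Its lowest, median and highest normalised count was 2491, 3946 and 7305 in wild type, and it was 9589, 10551, 12742, 5969 and 4339 in Osmr-/- 1, 2, 3, 5 and 6. Wild type 3 overlapped Osmr-/- 5 and 6, and every other wild type lay below all Osmr-/- libraries. The log2 difference was 1.07 (SE 0.323, adjusted p 0.133, limma) and 0.98 with the covariate (adjusted p 0.0380). Atp5c1, the gamma subunit that forms the shaft of the stalk, had -0.22, with -0.63 within the lower and 0.20 within the upper numbers, and -0.01 with length and GC trends removed.

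In the head of complex V, Atp5b, the catalytic beta subunit, had means of 4419 ± 950.4 and 2988 ± 512 (SD, n = 6 and 5) and a log2 difference of -0.56 (SE 0.204, adjusted p 0.184, limma), and its partner in the head, the alpha subunit Atp5a1, had -0.07. With length and GC trends removed, Atp5b had -0.19 (adjusted p 0.580, limma) and Atp5a1 0.11. Of the peripheral stalk genes, Atp5f1 and Atp5o had -0.03 and -0.05, Atp5h 0.27 and Atp5j 0.56. The 3 small membrane subunits that join ATP synthase dimers, Atp5j2, Atp5k and Atp5l, had 0.81, 0.91 and 1.06. With length and GC trends removed, Atp5h had 0.16 and Atp5k 0.59. Atp5l had means of 1923 ± 1161 and 3694 ± 1116 (SD, n = 6 and 5) and with the covariate an adjusted p of 0.0466 (limma).

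The c subunit, which forms the ring that turns in the membrane, is made from 3 genes that encode the same mature protein behind different import sequences. Atp5g1 had means of 5929 ± 2496 in wild type and 9156 ± 1450.2 in Osmr-/- (SD, n = 6 and 5), a log2 difference of 0.70 (adjusted p 0.181, limma). Atp5g2 had 0.57 and Atp5g3 had -0.14. Per kilobase of principal transcript, Atp5g1 made up 38.7 ± 5.00% of the summed level of the 3 genes in wild type and 48.3 ± 3.32% in Osmr-/- (SD). The Atp5g1 shares overlapped, with wild type 3 at 47.7% and Osmr-/- 5 at 43.9%. Atp5g3 made up 41.0 ± 6.15% and 28.6 ± 2.80%, and its Osmr-/- shares of 25.0 to 32.2% all lay below its wild-type shares of 33.4 to 47.6%. A share also falls where the other genes of the sum rise. The normalised counts of Atp5g3 overlapped between genotypes, at 5794 to 9028 in wild type and 4542 to 7797 in Osmr-/-. The share of Atp5g2 was 20.3 ± 3.64% and 23.1 ± 2.96%, with overlap. All shares depend on the 1 transcript taken per gene, which for Atp5g2 has 441 nt for 438 nt of coding sequence. These shares were computed after the genes' differences were known, have no background over other genes, and were not tested.

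Sorted by the length of the coding sequence instead of by complex, the shortest of the 39 genes stood apart. All 18 genes with a coding length of up to 350 nt had a higher mean in Osmr-/- (median log2 difference 0.89, from 0.34 in Cox6a1 to 1.23 in Cox7b). Of the 10 genes over 350 and up to 550 nt, 5 did (median -0.02), and 0 of the 6 over 550 and up to 1000 nt (-0.38). Of the 5 longer ones only Sdha did (-0.50). Other protein-coding genes tested had medians of 0.38 (402 genes), -0.07 (849), -0.37 (2393) and -0.03 (7223) in the same classes, which were chosen after the values were seen. Of these other genes 66.2%, 46.5%, 29.1% and 48.2% were above 0 in the 4 classes. The Spearman rho between coding length and log2 difference was -0.81 over the 39 genes, a description across genes that share their libraries, and 0.15 over the 10867 other coding genes, or 0.01 over the 7761 of these no longer than the longest subunit gene.

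Within the number sets rho was -0.79 for the lower and -0.77 for the upper numbers. The 4 class medians did not fall throughout: they were 0.79, 0.10, -0.70 and -0.76 in the lower numbers and 0.83, -0.12, -0.17 and 0.03 in the upper ones, where the longest class lay above both middle classes. With smooth trends over transcript length and GC content taken out of each library, rho was -0.76. The 4 class medians were then 0.75, -0.10, -0.07 and -0.19, and 18 of the 18 shortest still had a higher mean in Osmr-/-. The whole transcript length gave rho -0.64 and GC content -0.22.

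**Figure D3:**
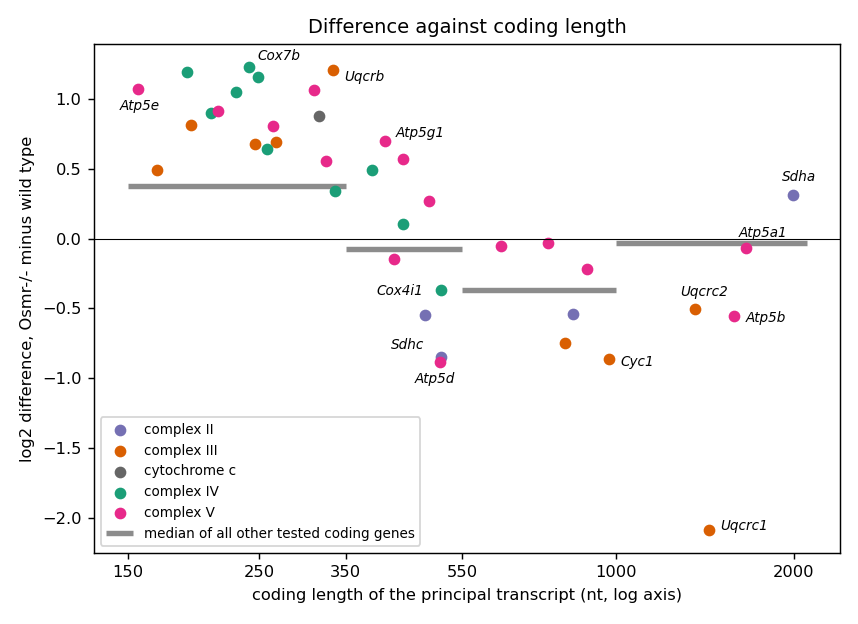
Log2 difference (Osmr-/- minus wild type) of the 39 subunit genes against the coding length of their principal transcript on a log axis, coloured by complex; grey bars are the medians of all other tested coding genes in each length class. The genes of up to 350 nt all lie above 0, and Uqcrc1 is the lowest.

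The small subunit genes also went together from library to library within a genotype. After subtracting each genotype's mean, 153 pairs of genes of up to 350 nt had a median Pearson r of 0.95 over the 11 libraries (0.82 to 0.99). The 55 pairs of genes over 550 nt had 0.45 (-0.80 to 0.90), and the 198 pairs of a short with a long gene had 0.18. These correlations share libraries and size factors and are descriptions. The gap between the number sets was left in the values, and no such r is given here for other genes. The summed normalised count of the 18 short genes was 96110, 94828, 176449, 51693, 57054 and 88872 in wild types 1 to 6. It was 177237, 204851, 202175, 121527 and 104606 in Osmr-/- 1, 2, 3, 5 and 6.

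Wild type 3 stood at the level of Osmr-/- 1, and it was the highest wild type in 18 of the 18 short genes. Osmr-/- 1 to 3 all lay above Osmr-/- 5 and 6 in 17 of the 18. Within the number sets, Osmr-/- 5 and 6 lay above wild types 4 to 6 in 16 of the 18, where 14.4% of all genes tested did, and Osmr-/- 1 to 3 lay above wild types 1 to 3 in 8 of the 18, where 13.5% did. Of the 11 genes over 550 nt, Osmr-/- 1 to 3 lay below wild types 1 to 3 in 7 (15.5% of all genes), and Osmr-/- 5 and 6 below wild types 4 to 6 in 1 (13.7%). Both groups of genes were set apart by length after these values were seen, and all 18 short genes already had a higher mean in Osmr-/-. The shares are of all genes and not of other short or long genes, so these counts are descriptions. Without wild type 3 the median over the 39 genes was 0.67, with 26 above 0, and still none was called by limma. The part that the difference between number sets has in the genotype difference was not tested beyond the within-set values and the covariate.

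**Figure D4:**
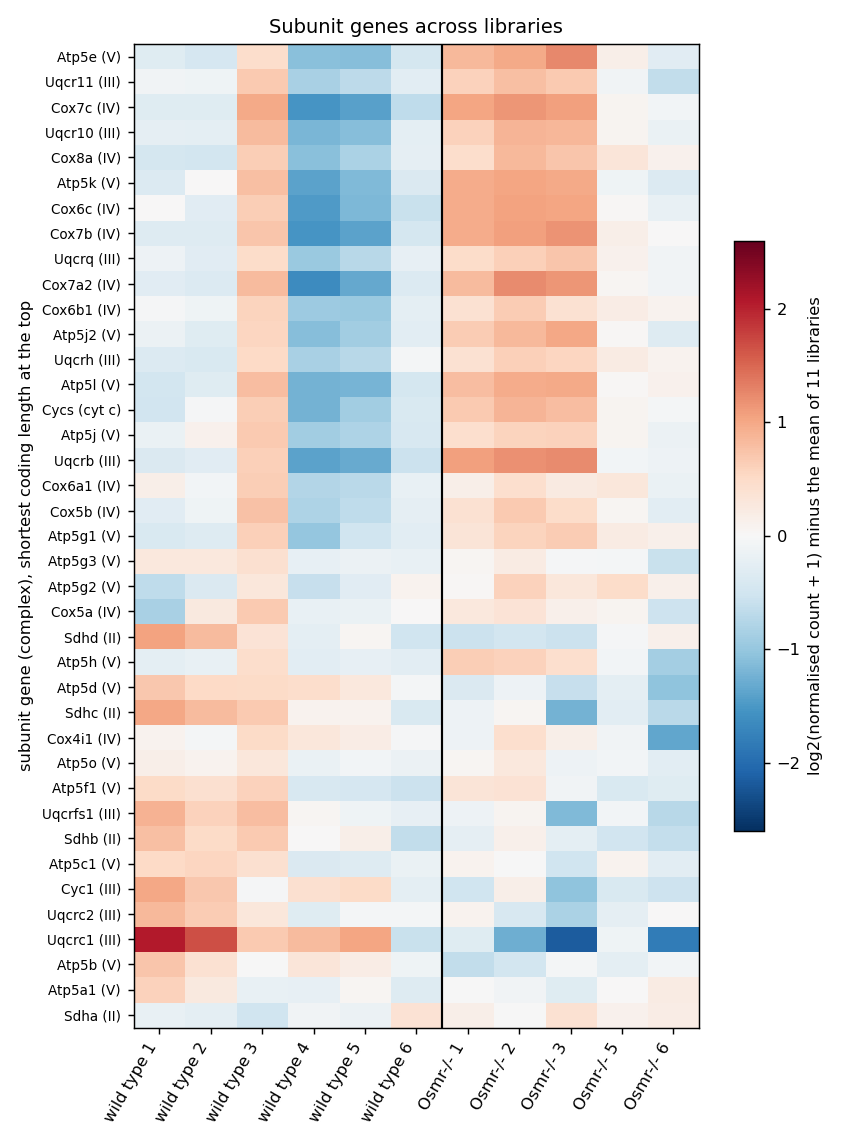
Deviation of each subunit gene from its mean over the 11 libraries, in log2(normalised count + 1), with genes sorted by coding length (shortest at the top) and the complex in brackets; the black line divides wild type from Osmr-/-. Among the short genes wild type 3 and Osmr-/- 1 to 3 are high and wild types 4 and 5 low, and Uqcrc1 is high in wild types 1 and 2.

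Levels per kilobase of principal transcript put genes on one scale, but they depend on the 1 annotated transcript taken for each gene. That transcript has 441 nt for 438 nt of coding sequence in Atp5g2, but 3171 nt for 507 nt in Sdhc. In Cycs it has 3123 nt for 315 nt. On this scale Cox4i1 was the highest of the 39 in wild type (20539 normalised counts per kilobase), followed by Cox8a (18028) and Uqcrb (13598). In Osmr-/- the order was Cox8a (31572), Uqcrb (30514) and Cox6c (20734), with Cox4i1 at rank 10 (17062), or rank 9 (19557) without Osmr-/- 6. Neighbours in these orders often swapped places between libraries: Cox4i1 was above Cox8a in 4 of 6 wild types, and in Osmr-/- Cox8a was above Uqcrb in 2 of 5 and Cox6c above Atp5e, the next gene, in 3 of 5. Cox8a above Uqcrb in wild type and Uqcrb above Cox6c in Osmr-/- held in every library. The lowest mean levels per kilobase were those of Sdha in wild type (542, below Sdhc in 4 of 6 libraries) and Sdhc in Osmr-/- (380, below Uqcrc1 in 2 of 5), and complex II held 2 of the 4 lowest places in wild type.

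Other genes of the same machinery were covered by lists. Of 4 further nuclear subunits of complexes IV and V, 3 had a higher mean in Osmr-/-, and with the covariate limma called Ndufa4, a complex IV subunit (log2 difference 1.02, covariate adjusted p 0.0490), and Usmg5, a small ATP synthase subunit (1.41, 0.0383). All 6 mitochondrially encoded subunits of complexes III to V were above 0, with a median of 0.95 and none at an unadjusted p under 0.05. Of these, mt-Cytb had 134761 ± 108942 and 262376 ± 135105 normalised counts (SD, n = 6 and 5) and mt-Co1 was of similar size, whereas mt-Co2, mt-Co3, mt-Atp6 and mt-Atp8 had means of at most 101, so the latter values are uncertain. Of the 36 nuclear subunits of complex I, 26 were above 0 and 10 below, with a median of 0.34, and Ndufv1, which binds NADH, was lower in the authors' deposited table (log2 fold change -1.26, adjusted p 0.00121), as was Ndufa9 (-1.01, 0.0410).

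The assembly factors gave a mixed picture. Uqcc2, an early assembly factor of complex III, was higher in the authors' deposited table (log2 fold change 0.86, adjusted p 0.0256), and its partner Uqcc1 was lower there (-1.03, 0.0170). In the fit with genotype alone, Uqcc2 had 0.94 and Uqcc1 -1.13 with adjusted p of 0.110 and 0.135 (limma). With the covariate Uqcc2 passed (0.88, adjusted p 0.0380, limma) and Uqcc1 did not (0.0652). Atpaf2, which helps to assemble the head of ATP synthase, was lower in the authors' deposited table (-1.07, 0.0334). Of 21 tested complex IV assembly genes 12 were above 0 and 9 below, with none called. Of 4 tested complex II assembly factors 3 were above 0.

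Of 8 tissue-restricted isoforms, such as the muscle and testis forms of complex IV subunits, 3 passed the filter and Cox8b had no read in any library. Of 12 regulators of mitochondrial biogenesis 7 were above 0 and 5 below, with a median of 0.13, and none passed the threshold in limma or the authors' deposited table.

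Copies and overlaps bear on single values. By alignment to GENCODE M21 transcripts, 11 of the 39 genes have at least 1 annotated pseudogene at 95% identity or more over at least 200 nt, with 8 for Atp5l, 3 each for Uqcrb, Cycs and Atp5h, and 2 each for Cox6c, Cox7b and Atp5g2. At the same thresholds, Cycs, Cox5b and Atp5l also match other coding genes (Gm10053, Gm11273 and Gm5426), and Uqcrc2 matches Pdzd9, which overlaps it. No source used here says how the counting split reads among such copies, so these values are uncertain. In 7 of the 39 over 10% of the principal transcript is covered by another annotated gene. The largest shares are in Atp5o (48.6%) and Cox5a (41.7%), and Atp5l (24.4%), Uqcrc2 (26.6%) and Cox4i1 (18.0%) are among the others. Without strand such reads cannot be told apart. Atp5o is covered at 29.0% on the same strand and 19.6% on the opposite one. The overlapping gene models there are D430001F17Rik and a second model that itself carries the name Atp5o. Its 48.6% is thus not all shown to belong to a different gene. Uqcrc1, Atp5d, Atp5e, Cyc1 and Uqcrh have neither a pseudogene at this identity nor an overlap.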

How the data were processed

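Per the submitters' processing notes, reads were handled with Trimmomatic 0.36.6, FastQC 0.72, HISAT2 2.1.0 on mm10, HTSeq 0.9.1 and DESeq2 2.11.40.6. No source used here names the annotation or strand setting. Libraries were made per the labels' protocols with SMART-Seq v4 and Nextera XT. The expression signal deposited by the authors is a normalised count, each gene's reads divided by the library's size factor. The authors also deposited log2 values (regularised logarithm and variance stabilising transformation) and a comparison table. That deposited table holds log2 fold changes, a Wald score and p-values, and its 615 genes past 0.05 have the sign of wild type minus knock-out, so signs are turned here. Whole reads were recovered in every library from the deposited values (largest distance from a whole number 1.4e-09), with 0 sample columns left unmapped, and gave 9.50 to 22.1 M reads per library.

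The 13358 of 43279 genes that reached 10 normalised counts in 5 or more libraries were fitted as log2(normalised count + 1) in limma 3.58.1 (lmFit, eBayes with trend, R 4.3.3). P-values were two-sided and Benjamini-Hochberg adjusted over all genes tested. The pseudocount makes differences of low genes look smaller. edgeR 4.0.16 and DESeq2 1.42.0 were run on the recovered reads. Also tried were other pseudocounts (0.5, 10), filters (none, 50), scalings (TMM, quantile), both sets of authors' log2 values, limma without trend, with robust variance or with array weights, the number-set covariate, a replicate block, each number set alone, leaving out libraries, and removal of length and GC trends. Coding and transcript lengths, positions and copies came from GENCODE M21 (GRCm38, which is mm10), taking 1 principal transcript per gene, and promoters from RefSeq GRCm38.p6.

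The member genes, gene lists and the number sets were chosen with earlier results of these data known. Genes named were all of complex II, the paralogous or paired sets (Uqcrc1 and Uqcrc2, Atp5g1 to Atp5g3, Cycs and Cyc1), the 4 further members of lowest p in each of complexes III to V, members without overlap between genotypes or past 0.05 in the authors' deposited table, list genes past 0.05 in limma or that table, and the ends of ranges. Other named genes were chosen after their values were seen. The libraries carry no molecular identifiers, so reads that PCR copied count more than once.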

Additional observations from a re-analysis of the deposited data

Results flagged for a closer look

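In 10 of the 78 groups examined (39 genes in each genotype), a single library lay far from the others of its genotype by Dixon's criterion at 95%, and in all 10 it was wild type 3 on the high side. Chance marks about 1 in 20 groups, and these genes go together from library to library, so the 10 are not independent. In complex III, wild type 3 held a normalised count of 9502 for Uqcr10, where the other wild types held 2362 to 4586, and 9807 for Uqcr11, where they held 3401 to 5772. In complex IV it held 7322 for Cox5b (others 2473 to 4042), 13249.7 for Cox7a2 (2424 to 6067) and 9307 for Cox7b (1944 to 4468). Its Cox7c was 6643 (1169 to 2728) and its Cox8a was 19005 (5754 to 10382). In complex V it held 10754 for Atp5g1 (3472 to 5741) and 4159.7 for Atp5l (1007 to 1912). Its Atp5h was 12157, where the other wild types lay between 7290 and 7745. Among the Osmr-/- libraries no subunit gene met the criterion.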

How the results depend on the processing

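Over 30 alternatives, 1170 values of the 39 genes were recomputed: 1126 kept their direction and side of the threshold, 18 kept their direction and passed it, and 26 turned direction, in 8 genes. The number of subunit genes called was 0 with genotype alone, 9 with the number-set covariate, 3 with DESeq2 on recovered reads, and 1 (Uqcrc1) with a pseudocount of 10, quantile scaling, the authors' rlog values or the authors' VST values. Leaving out 1 library gave 0 to 2, the 2 (Uqcrc1 and Atp5d) without wild type 6. Over all genes the count of 3 became 55 with a pseudocount of 10, 56 with quantile scaling, 69 and 66 with the rlog and VST values, 337 with the covariate, 678 with DESeq2, 20 with length and GC trends removed, and 1 without wild type 1 and Osmr-/- 3. It was 0 with no filter, with a filter at 50, and within numbers 1 to 3 or 4 to 6 alone, and 0 to 122 on leaving out 1 library, 122 without wild type 6. The causes were not tested. The fits within a number set also held fewer libraries, and the effect of library number was not tested either.

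Within numbers 4 to 6 alone, the log2 difference turned to 0.30 in Sdhd, 0.034 in Uqcrc2, -0.12 in Cox5a, 0.27 in Atp5a1, 0.20 in Atp5c1, 0.12 in Atp5f1 and -0.22 in Atp5h. Without wild type 1 and Osmr-/- 3 it was -0.077 in Cox5a, 0.12 in Atp5a1, 0.080 in Atp5f1 and 0.0027 in Atp5o. With length and GC trends removed it was -0.034 in Cox5a, 0.11 in Atp5a1, 0.31 in Atp5f1 and 0.13 in Atp5o. Quantile scaling gave -0.037 in Cox5a, moved the median of the 39 genes from 0.49 to 0.29 and that of all genes from -0.05 to 0.02. Leaving out 1 library gave -0.058 to 0.25 in Cox5a, -0.14 to 0.045 in Atp5a1, -0.15 to 0.082 in Atp5f1 and -0.13 to 0.011 in Atp5o, whose values all lie close to 0.

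Same-numbered libraries of the genotypes had correlations of their deviations of 0.0203 to 0.0986 over 5 pairs, and other pairs -0.193 to 0.139, so the numbers were not taken to pair the mice. The fit with a replicate block called 0 genes and 0 subunit genes, and turned no direction among the 39. The reads of a subunit gene summed over a genotype ranged from 3402 to 111656.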
